A study of Cavia porcellus with 30 samples.

Results

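The transcripts described here stood higher than in vehicle animals in guinea pig liver 33 h after 100 mg/kg thioacetamide, with smaller ratios at 33 h after 25 mg/kg and ratios near 1 at 9 h after 100 mg/kg. They numbered 367 of the 25824 transcripts listed in each table (1.42%). Each was chosen by 3 ratios of group means in TPM (a level corrected for transcript length and library depth, on a scale with a fixed total), with 0.1 TPM added to the treated and to the vehicle mean. The high dose ratio had to be at least 2.5 at 33 h and between 0.67 and 1.5 at 9 h, and the low dose ratio at 33 h had to be under 1.5. The high dose mean at 33 h had to reach 1 TPM, and the mean of the 10 vehicle animals had to be under 50 TPM. The ratios at 33 h and the high dose ratio at 9 h are therefore descriptions with no test, and the low dose animals at 9 h were the only group that the choice did not use.

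The animals were 30 Hartley guinea pigs, an outbred laboratory breed, and each liver gave 1 poly-A RNA library. Saline at 3 ml/kg was given to 5 animals studied at 9 h and 5 at 33 h, thioacetamide at 25 mg/kg (the low dose) to 5 and 5, and thioacetamide at 100 mg/kg (the high dose) to 5 and 5. No age is given in the labels used here. Libraries held 21352824 to 33842322 estimated counts, of which the 367 transcripts took 49784 to 226988.

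Thioacetamide does its damage after liver enzymes, mainly those of the cytochrome P450 and flavin monooxygenase families, have turned it into a reactive S-oxide and S-dioxide. In rats the injury lies around the central veins of the lobule, and cell death there is followed by inflammation and by division of surviving hepatocytes. The files list Ensembl transcript identifiers, and 0 of 25824 were matched in the reference table of 37416 genes used here. Gene names, roles and sequences are accordingly not given, and the liver label was not checked against marker genes.

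Of the limits set after the high dose ratio at 33 h, the one on the low dose removed the most transcripts. Of 3883 transcripts with a high dose ratio of at least 2.5 at 33 h, 3055 reached 1 TPM, 1879 of these met the limits at 9 h, and 1822 of those lay under 50 TPM in vehicle animals. The low dose ratio was under 1.5 in 367 of the 1822 and 1.5 or more in the other 1455. No gap separated these sets, since 83 transcripts had a low dose ratio of 1.3 to 1.4, 90 a ratio of 1.4 to 1.5, 126 a ratio of 1.5 to 1.6 and 166 a ratio of 1.6 to 1.7. The values nearest to that limit were 1.4993 inside and 1.50004 outside. At the high dose limit at 33 h they were 2.501 inside and 2.4955 outside, and at the 9 h limits 0.683 inside and 0.665 outside, then 1.493 inside and 1.505 outside. For the level limits they were 1.01 TPM inside and 0.991 TPM outside at the high dose, and 39.98 TPM inside and 60.4 TPM outside in vehicle animals.

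**Figure D1:**
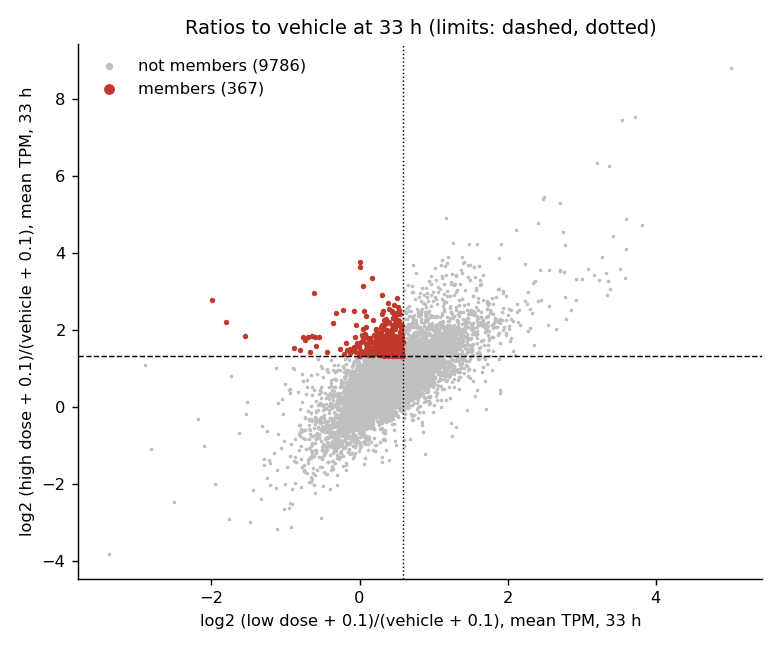
Each point is 1 of 10153 transcripts that met the level limits and the 9 h limits, with the log2 low dose ratio at 33 h on the x axis and the log2 high dose ratio at 33 h on the y axis. The 367 chosen transcripts fill the upper left corner cut by the dashed line (high dose ratio of 2.5) and the dotted line (low dose ratio of 1.5), and the cloud runs through both lines without a break.

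The 367 transcripts had high dose ratios of 2.501 to 13.5 at 33 h, with a median of 3.06 and quartiles of 2.72 and 3.60. Modest ratios were the rule: 175 lay between 2.5 and 3, 129 between 3 and 4, 36 between 4 and 5, and 27 above that. In vehicle animals 3 were under 0.1 TPM, 130 at 0.1 to 1 TPM, 198 at 1 to 10 TPM and 36 at 10 to 50 TPM. The median of the high dose means at 33 h was 5.73 TPM, against 1.59 TPM for the vehicle means at that time. Liver RNA was measured in bulk, so more cells of a type and more RNA per cell cannot be told apart.

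The level of most transcripts was higher on the TPM scale at 33 h after treatment, and the ratios above include that shift. Over the 18239 transcripts that passed the count filter, the median log2 ratio was 0.67 at the high dose and 0.40 at the low dose at 33 h. The median low dose log2 ratio of the 367 was 0.37, close to the median of the tested transcripts. With trimmed mean scaling (TMM, which sets the bulk of transcripts near no change), the median log2 ratio of the 367 at 33 h was 1.01 at the high dose and -0.01 at the low dose, and the medians of the tested transcripts were 0.09 and 0.03. Under this scaling 191 transcripts met the same ratio limits, of which 73 were among the 367. Those 73 had a median TPM ratio of 4.53 at the high dose, against 2.87 for the other 294.

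The 5 high dose livers at 33 h did not hold the set at the same level. The 367 transcripts summed to 3849, 5109, 6146, 4480 and 2879 TPM in high dose animals 1 to 5, and to 1368, 1431, 1280, 1437 and 1360 TPM in the vehicle animals of that time. Animal 3 was the highest and animal 5 the lowest, and even animal 5 was above each vehicle animal. The mean sum was 4492 ± 1238 TPM over high dose animals, set against 1375 ± 63.9 TPM over vehicle animals (n = 5 each, SD). A score over transcripts chosen from these groups was not tested.

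Singly, most transcripts were highest in animal 3 and most were lowest in animal 5, though both held together in 154 of the 367. Animal 3 was the highest of the 5 in 219 of the 367, animal 2 in 86, animal 4 in 39, animal 1 in 17 and animal 5 in 6. Animal 5 was the lowest in 243 and animal 1 in 81 of those detected in each animal. Animal 3 stood above animal 5 in 344 transcripts, by a median of 2.11-fold. Over all tested transcripts, animals 1 to 5 were the highest in 11.5%, 26.4%, 24.3%, 13.7% and 24.1%. They were the lowest in 31.1%, 8.71%, 21.6%, 13.4% and 25.2%. These last shares include transcripts at 0, with ties given to the animal numbered first. The choice used the high dose values at 33 h, so nothing is read from the ranks beside these shares. Without animal 3, 263 of the 367 still met the limits, against 346, 312, 334 and 357 without animals 1, 2, 4 and 5.

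The 1455 transcripts that met the other limits but were also raised in ratio at the low dose spread less over the same 5 livers. Their median log2 ratio was 1.673, 1.778, 1.8003, 1.654 and 1.541 in high dose animals 1 to 5, and that of the 367 was 1.34, 1.78, 2.06, 1.65 and 1.03. The mean of these medians was 1.57 ± 0.40 for the 367 and 1.69 ± 0.10 for the 1455 (SD, n = 5 animals each). The coefficient of variation (SD over mean) among high dose animals had a median of 37.4% in the 367, 19.98% in the 1455 and 21.7% in the tested transcripts. Among vehicle animals at 33 h the medians were 22.7%, 20.6% and 19.5% in the same order of sets. The sets lay closer together there, but the 367 had the highest median in each of the other groups too. In the same order the medians were 25.8%, 19.3% and 18.9% in vehicle and 28.7%, 17.8% and 18.2% in low dose animals at 9 h. They were 23.6%, 19.98% and 19.1% in high dose animals at 9 h and 34.7%, 30.6% and 22.2% in low dose animals at 33 h. The median of the high dose means at 33 h was 5.73 TPM in the 367 and 9.67 TPM in the 1455. The part of level in the spread was not tested. The difference in spread between the sets was not tested.

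Another measure also differed among these livers. The 100 most abundant transcripts of vehicle livers took 28.8%, 26.2%, 28.9%, 32.6% and 35.9% of counts in high dose animals 1 to 5, against 38.1% to 43.2% in the vehicle animals at 33 h. Animal 5, with the lowest sum of the late transcripts, kept the largest share, but animal 3, with the highest sum, did not have the smallest. The part of this measure in the result was not tested. None of the 367 was among those 100. The limit of 50 TPM on the vehicle mean fixed this in advance, so nothing is read from it.

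**Figure D2:**
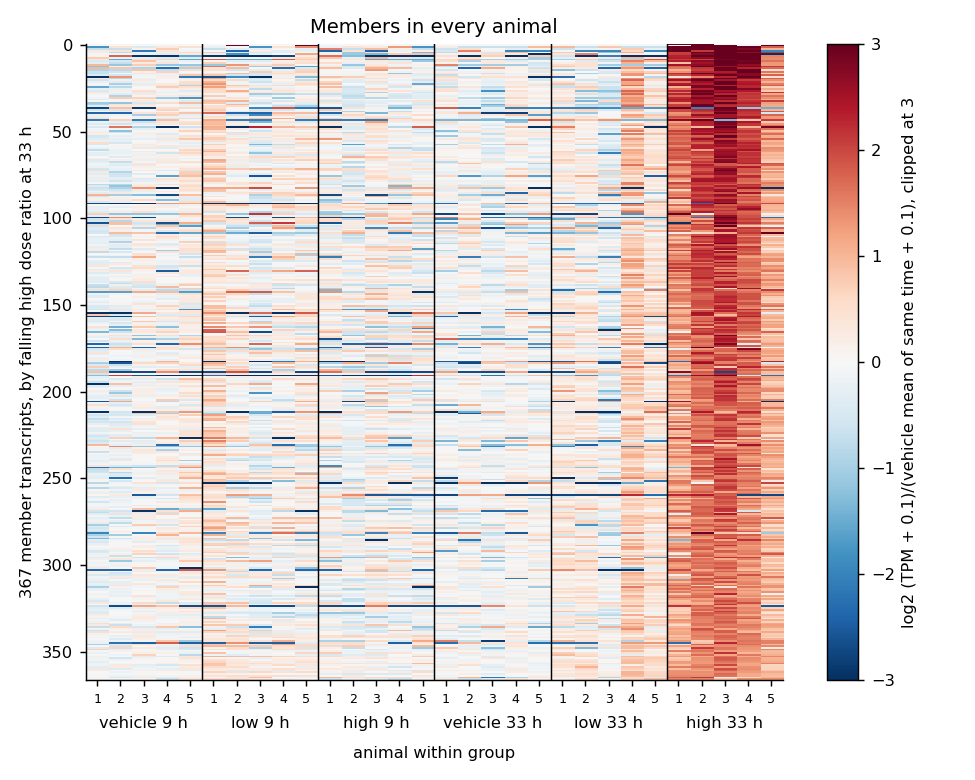
Rows are the 367 transcripts, ordered by falling high dose ratio at 33 h, and columns are the 30 animals by group. Colour is the log2 ratio of TPM to the vehicle mean of the same time (0.1 TPM added to each), clipped at 3. High dose animals at 33 h are mostly red, most deeply animal 3 and least animal 5, and among the low dose animals at 33 h animal 4 is the reddest.

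Among the low dose animals at 33 h, animal 4 held the set at the highest level and animal 3 at the lowest. The 367 summed to 1764, 1695, 1257, 2446 and 1789 TPM in low dose animals 1 to 5, and the median log2 ratios were 0.23, 0.22, -0.16, 0.78 and 0.38. Animal 4 was the highest of the group in 257 of the 367 transcripts, and animal 3 the lowest in 218. Over all tested transcripts animal 4 was the highest in 44.4% and animal 3 the lowest in 47.9%, with transcripts at 0 included. The median log2 ratio of the tested transcripts was also highest in animal 4, 0.557 against 0.143 to 0.428 in the others. At least 2-fold above the vehicle mean stood 93 transcripts in animal 4, and 6 to 10 in each of the others. Animal 4 also exceeded the lowest high dose animal in 127 transcripts, and the others did so in 27 to 51. The 1455 other transcripts had their highest median in the same animal, 1.47 against 0.464 to 1.049 in the others. The 100 most abundant vehicle transcripts took their smallest share in it, 31.2% against 32.9% to 37.7%. Without low dose animal 4, 629 transcripts met the limits in place of 367, including 363 of the 367.

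High dose and vehicle animals at 33 h did not overlap in most of the set, and high and low dose animals at 33 h in a smaller part. In 305 of the 367, or 83.1%, each high dose animal stood above each vehicle animal. The choice used these groups, so nothing is read from that share; it was 52.4% among all transcripts with a high dose mean of at least 1 TPM. In 0 of the 367 did each high dose animal stand below each vehicle animal, or below each low dose animal. The limits on the group means made this impossible, so nothing is read from it beside 5.73% and 4.93% of all such transcripts. Each high dose animal stood above each low dose animal in 203, or 55.3%, against 13.1% of all such transcripts, again a comparison that the choice used. Without high dose animal 5 the second count was 287, and without low dose animal 4 it was 280. Leaving out an animal cannot lower such a count. Low dose and vehicle animals at 33 h were apart upward in 12 and downward in 0 of the 248 transcripts of the set with a low dose mean of at least 1 TPM (30.2% and 2.11% of all transcripts at that level). The choice used these groups too, and its limit on the low dose ratio left out transcripts with larger rises, so nothing is read from these counts.

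By level, as a description of values that the rule used, high dose and vehicle animals at 33 h did not overlap in 90 of 133 transcripts under 1 TPM in vehicle animals, in 182 of 198 at 1 to 10 TPM and in 33 of 36 at 10 to 50 TPM. The median coefficient of variation at the high dose was 41.3%, 35.1% and 28.3% in these classes. Neither measure was computed over all transcripts of each class, so the trend with level is not read as particular to the set. In each library the median transcript of the set rested on 56.0 to 272 estimated counts, and the part of counting error in these values was not tested. At least 10 counts in each of the 30 libraries stood behind 263 of the 367.

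**Figure D3:**
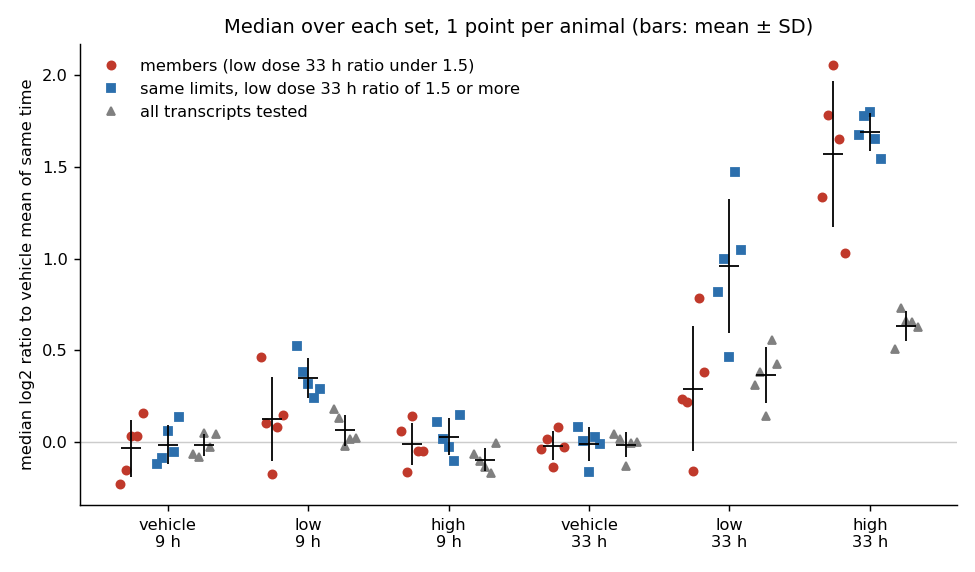
Each point is 1 animal, and the y axis is the median log2 ratio of TPM to the vehicle mean of the same time over the 367 transcripts (red), over the 1455 with a low dose ratio of 1.5 or more (blue) and over the 18239 tested (grey). Black bars give the mean and SD over 5 animals. At the high dose, 33 h, red points run from 1.03 to 2.06 and blue points from 1.541 to 1.8003.

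The most abundant transcript of the set was ENSCPOT00000036242.1, of 2469 bases. At 33 h it measured 219, 242, 277, 155 and 86.8 TPM in the high dose animals and 49.1, 40.7, 35.6, 42.4 and 36.7 TPM in the vehicle animals. Each high dose animal was above each vehicle animal, and animals 3 and 5 were again the highest and lowest. The low dose animals at that time had 50.7, 34.8, 26.2, 99.1 and 45.4 TPM, where animal 4 exceeded high dose animal 5, animal 1 lay just above the highest vehicle value, and the others lay among or below the vehicle values. Its ratio was 4.78 at the high dose and 1.25 at the low dose. At 9 h it measured 37.2 ± 4.85 TPM in vehicle, 45.2 ± 7.79 TPM in low dose and 37.7 ± 5.27 TPM in high dose animals (n = 5 each, SD).

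The second in abundance, ENSCPOT00000045152.1, of 1168 bases, also had the sixth highest ratio of the set, 7.45. At 33 h it measured 91.5, 272, 226, 144 and 97.9 TPM in the high dose animals and 13.2, 18.3, 15.6, 41.9 and 22.2 TPM in the vehicle animals. The groups did not overlap, and here animal 2 was the highest and animal 1 the lowest. Low dose animals had 38.2, 23.2, 9.48, 45.8 and 20.8 TPM, which spans the vehicle range. At 9 h the means were 23.0 ± 8.09 TPM in vehicle, 22.9 ± 9.67 TPM in low dose and 19.3 ± 10.2 TPM in high dose animals (n = 5 each, SD). The next 4 in abundance, of 687 to 1907 bases, averaged 94.3 to 113 TPM at the high dose with ratios of 2.72 to 4.11.

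**Figure D4:**
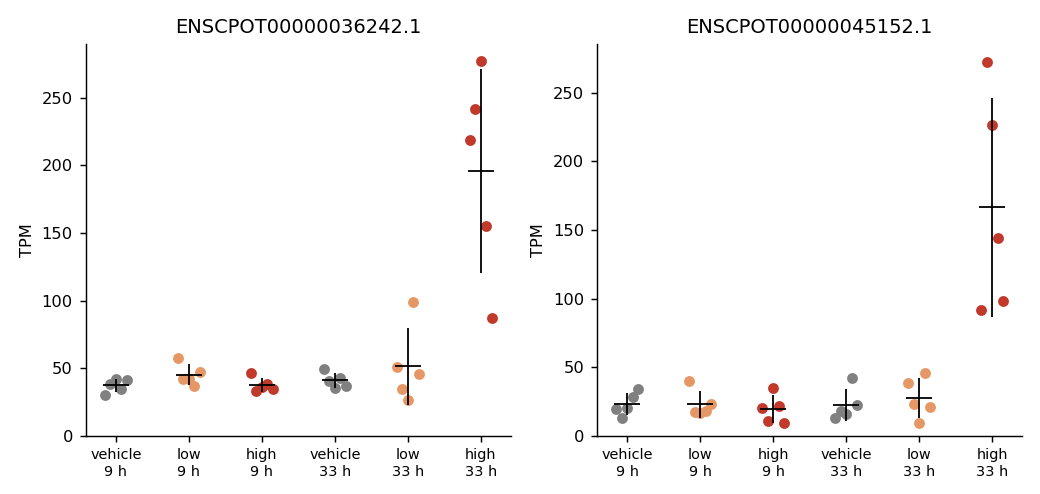
TPM in each animal of the 6 groups for the pair of most abundant transcripts of the set, with black bars for mean and SD (n = 5). High dose animals at 33 h lie at 86.8 to 277 TPM for ENSCPOT00000036242.1 and 91.5 to 272 TPM for ENSCPOT00000045152.1, above the vehicle animals in each panel.

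The highest ratios of the set belonged to transcripts near the lower level limit. The highest, 13.5, came from a transcript of 549 bases that measured 3.68 and 2.59 TPM in high dose animals 1 and 2 at 33 h and was listed at 0 in animals 3 to 5, with at most 6.7e-06 TPM in any other library. The next, 12.5, came from a transcript of 135 bases at 2.06, 2.03 and 1.65 TPM in high dose animals 2, 3 and 5 and at 0 in animals 1 and 4. It was at 0 in all 10 vehicle libraries, but low dose animals 2 and 5 at 9 h held 3.54 and 1.75 TPM. These ratios depend on the 0.1 TPM added to each mean, and high dose animals overlapped vehicle animals at 0. The third, 10.1, belonged to a transcript of 1173 bases with 1.43, 1.82, 1.22, 2.58 and 0.447 TPM in the high dose animals and 0.0841, 0, 0, 0 and 0.207 TPM in the vehicle animals, where the groups did not overlap. In 10 of the 367, 1 high dose animal held over 50% of the summed TPM of the group, and 10 were at 0 in at least 1 high dose animal.

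Among the 195 transcripts with a high dose mean of at least 5 TPM, the coefficient of variation at 33 h ran from 7.86% to 85.1%. The most even, of 3724 bases, had 7.32, 7.49, 8.51, 8.50 and 8.66 TPM in the high dose animals and 3.01, 2.58, 2.78, 4.14 and 3.16 TPM in the vehicle animals. No high dose animal stood out, and the ranges were apart. The most uneven, of 1203 bases, had 2.12, 4.28, 8.14, 13.6 and 1.43 TPM in the high dose animals and 0.620, 0.964, 0.878, 1.07 and 1.297 TPM in the vehicle animals. There animal 4 was the highest, and animal 5 lay just above the highest vehicle animal.

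At 9 h the set lay near vehicle level at the high dose, as the choice required. The 367 summed to 1661, 1414, 1746, 1529 and 1509 TPM in high dose animals and 1304, 1365, 1546, 1558 and 1705 TPM in vehicle animals, ranges that overlapped almost throughout. High dose and vehicle animals did not overlap upward in 8 and downward in 4 of the 235 transcripts of the set with a mean of at least 1 TPM in the high dose group (10% and 13.4% of all transcripts at that level). Low dose animals at 9 h summed to 2123, 1686, 1468, 1603 and 1711 TPM, and animal 1 was the highest of that group in 181 of the 367 transcripts. Over all tested transcripts it was the highest in 33.3%. In that animal 42 transcripts stood at least 2-fold above the vehicle mean, against 12 to 14 in the other 4. Low dose and vehicle animals at 9 h did not overlap upward in 13 and downward in 0 of the 248 transcripts of the set at 1 TPM or more in the low dose group, against 15.4% and 5.94% of all transcripts at that level.

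The low dose at 9 h was the comparison open to a test, and few of the transcripts passed it. The filter on low counts left 357 of the 367. Of these, 13 rose and 5 fell at the low dose, 18 in all or 5.04% (edgeR quasi-likelihood test, adjusted p under 0.05 over 18239 transcripts). The background was 24.7% of all tested transcripts (13.5% rose and 11.2% fell), and 18.8% of the 13698 tested transcripts whose high dose ratio at 9 h met the same limits of 0.67 and 1.5. Among the 1455, 1437 were tested, 378 rose (26.3%) and 5 fell (0.348%), or 26.7% in all. Whether these shares differ was not tested, and the vehicle animals at 9 h had a part in the choice. The 367 had a lower median vehicle level at 9 h, 1.75 TPM against 3.94 TPM in the tested transcripts and 3.14 TPM in the 1455. Their median coefficient of variation at the low dose, 9 h, was 28.7%, against 18.2% and 17.8%. The count filter and the estimate of spread drew on all 30 libraries. These included the high dose animals at 33 h, which the choice used. Fitted to the compared groups alone, the model tested 337 of the 367 and called 16 rises and 10 falls. Over all transcripts that fit called 4559 of 16575. The part of level and spread in the shares called was not tested. With library totals as scaling 15 rose and 1 fell among the 367, and rises made up 76.1% of all calls in place of 54.8%. The median fitted log2 fold change was 0.11 in the 357 and 0.00 in all tested transcripts, with quartiles of -0.09 and 0.27 in the 357 and -0.26 and 0.35 in all.

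The rises were small. They ran from 0.30 to 0.85 on the log2 scale, and 2 of the 18 called changes, both falls, reached 2-fold. The largest rise with a mean of at least 5 CPM (counts scaled to library size) was that of a transcript of 2472 bases, which had 6.05, 4.61, 4.13, 3.86 and 6.65 TPM in low dose animals and 2.43, 2.07, 2.52, 3.41 and 3.63 TPM in vehicle animals at 9 h. Each low dose animal was above each vehicle animal, and the log2 fold change was 0.75 ± 0.22 (SE, edgeR adjusted p = 0.0137). The largest fall under the same condition, in a transcript of 5661 bases, had 1.33, 1.23, 0.978, 1.16 and 0.903 TPM in low dose animals and 1.72, 1.33, 2.11, 1.45 and 1.37 TPM in vehicle animals. Low dose animal 1 lay just above vehicle animal 2 and the other low dose animals lay below each vehicle animal, and the log2 fold change was -0.61 ± 0.16 (SE, edgeR adjusted p = 0.00528). ENSCPOT00000036242.1 had 0.18 ± 0.23 (edgeR adjusted p = 0.641) and ENSCPOT00000045152.1 had -0.11 ± 0.39 (SE, edgeR adjusted p = 0.888). The SE values draw on the spread in all 30 libraries, not on the 9 h animals alone. Fitted to the compared groups alone, ENSCPOT00000036242.1 had 0.19 (edgeR adjusted p = 0.226) and ENSCPOT00000045152.1 had -0.11 (edgeR adjusted p = 0.82).

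**Figure D5:**
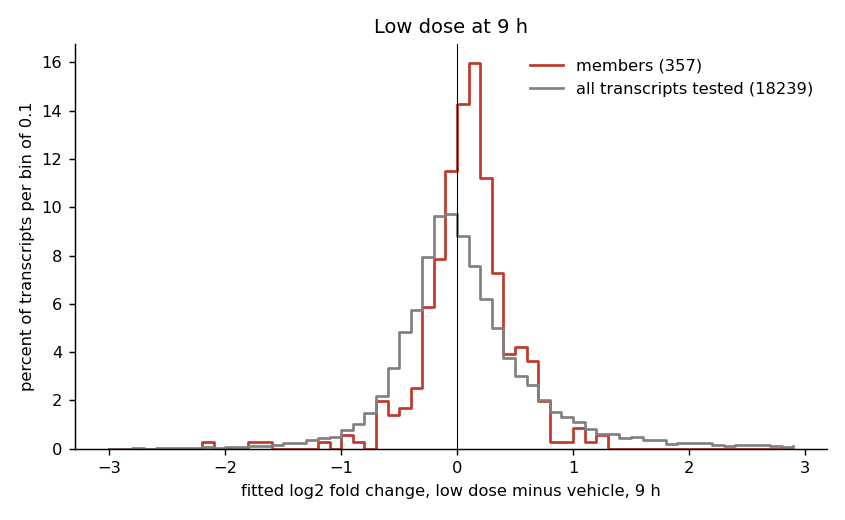
Percent of transcripts (y axis) in bins of 0.1 of the fitted log2 fold change of low dose minus vehicle at 9 h (x axis), for 357 transcripts of the set (red) and all 18239 tested (grey); 2 of the first and 375 of the second lie beyond the axis limits of -3 and 3. The red curve is narrower than the grey one, with quartiles of -0.09 and 0.27 against -0.26 and 0.35.

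Length and read sharing, which the choice did not use, lay near those of other transcripts. The median length was 2170 bases in the 367, against 2357 bases in the 14881 transcripts with a high dose mean of at least 1 TPM at 33 h. Estimated counts were whole numbers within 1e-06 in each of the 30 libraries for 170 of the 367 (46.3%) and for 41.3% of the 14881. A whole number in each library is what a transcript gives when its reads are not divided with another. The shares with animal 3 highest and animal 5 lowest were close in the 170 and in the 197 others: animal 3 was the highest in 58.8% and 60.4%, and animal 5 the lowest in 70.0% and 64.5%. Unlike the count given earlier, the shares for animal 5 include transcripts at 0 in that animal alone. The median high dose ratio at 33 h was 3.07 in the 170 and 3.02 in the 197.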

How the data were processed

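Per the submitters' processing notes, reads were assigned to transcripts with kallisto 0.42.4; the transcript set is not given in the sources used here. Per the file headers, the authors deposited for each library an estimated count, which is not normalized, and a TPM value per transcript. Reads shared between transcripts are divided by that estimate, so the level of 1 transcript can follow another.

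Replicates were taken as separate animals and numbered in accession order, which only names them. The members and lists were chosen with earlier results of these data known. Ratios, sums and medians were computed from TPM with pandas 2.3.3. For the low dose against vehicle at 9 h, estimated counts were rounded and 1 model with a coefficient per group was fitted to all 30 libraries with edgeR 4.0.16 in R 4.3.3 (filterByExpr defaults, minimum count 10 and total 15, TMM, robust quasi-likelihood). Benjamini-Hochberg adjustment covered all 18239 transcripts. On simulated counts for this comparison, with 17224 tested, 27.3% of 1.5-fold, 52.4% of 2-fold and 95.3% of 4-fold changes were recovered, and 2 of 114 calls were false. These changes were put into 66, 63 and 64 of the tested transcripts, and all others had the vehicle means of 9 h in each group. In the data 4504 of 18239 transcripts were called, so the recovered shares may not hold for the test as run. Limma 3.58.1 and DESeq2 1.42.0 were alternatives.

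Transcripts given with the value of each animal were those with the highest ratios, the highest levels, the largest calls at 9 h above 5 CPM, and the smallest and largest coefficients of variation above 5 TPM. Only 2 are named by identifier, since no gene names were matched.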

Additional observations from a re-analysis of the deposited data

Results flagged for a closer look

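In 72 groups of 5 animals examined, 4 held an animal whose gap to the next exceeded 0.71 of the group's range; chance alone gives about 1 group in 20. ENSCPOT00000045152.1 was at 39.5 TPM in low dose animal 1 at 9 h, against 16.5 to 23.0 TPM in the other 4. The most uneven transcript at the high dose, of 1203 bases, was at 4.17 TPM in high dose animal 3 at 9 h, against 1.67 to 1.88 TPM in the others. The transcript with the highest ratio, of 549 bases, was listed at 4.48e-08 TPM in vehicle animal 4 at 9 h and at 6.7e-06 TPM in vehicle animal 2 at 33 h, with the other vehicle animals of each time at 0. These values lie far below 1 read.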

How the results depend on the processing

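The number of transcripts that met the limits was 191 with TMM-scaled CPM (73 of them among the 367), 177 with TPM over median-of-ratios factors (64 shared) and 195 with a high dose mean of at least 5 TPM. It was 358 with 0.01 TPM added, 310 with 1 TPM added (142 shared) and 502 with group medians (240 shared). Leaving out 1 animal gave 279 to 629, of which 263 to 363 were among the 367; the highest number came without low dose animal 4 and the lowest without high dose animal 3. With TMM the median log2 ratio of the 367 at 33 h was 1.01 at the high dose, in place of 1.61, and -0.015 at the low dose, in place of 0.37, since that scaling removes the shift shared by most transcripts. Without 1 animal these medians were 1.48 to 1.72 and 0.20 to 0.46. The median log2 ratio at the low dose, 9 h, was 0.18, and 0.06 to 0.29 without 1 animal.

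Calls at the low dose, 9 h, among the 367 numbered 16 to 26 over 7 other fits and 14 to 20 without 1 animal. Over all transcripts they numbered 3854 to 4146 without 1 animal. The counts of transcripts in which high dose animals at 33 h stood above vehicle animals and above low dose animals were 306 to 328 and 205 to 287 without 1 animal. Leaving out an animal can only keep or raise the full counts of 305 and 203, so no stability is read from these ranges. No paired analysis was possible because the labels give no replicate number shared between groups. The part of depth in these values was not tested.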
